A study of Mus musculus with 12 samples.

Results

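Among 46403 genes in the table, 9 form a set of switches that hold kidney cells in an epithelial state or move them toward a mesenchymal one, and they were picked by symbol: Ovol1, Ovol2, Esrp1, Esrp2, Zeb1, Zeb2, Snai1, Snai2 and Twist1. All 9 had a row in the table and all 9 passed the filter on low counts that left 23742 genes for testing. The 9 genes and the gene lists used below were chosen with earlier results of these data known. Their counts of calls, given beside the share of all genes, describe the data and do not test the lists. Ovol1 and Ovol2 encode zinc finger repressors of epithelia, and Esrp1 and Esrp2 encode RNA-binding proteins that set the epithelial pattern of alternative splicing. Zeb1, Zeb2, Snai1, Snai2 and Twist1 encode repressors and activators that switch off junction genes such as Cdh1 (E-cadherin) during an epithelial-to-mesenchymal transition.

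These factors form a loop. Grainyhead-like factors such as Grhl2 and the Ovol factors activate epithelial genes and repress Zeb genes, while Zeb and Snail proteins bind E-box sequences and repress epithelial genes, the Esrp genes among them. In the mouse kidney, Grhl2 is made in the collecting duct epithelium, and Ovol2 is a known target of Grhl2 in that tissue. In a whole kidney the Zeb, Snail and Twist transcripts can also come from endothelium, fibroblasts, smooth muscle and leukocytes, which make them without any transition.

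RNA with poly(A) tails from the right kidney was sequenced in 12 libraries. The 4 Grhl2KO_Myc libraries came from mice labelled as Grhl2 knockout with Myc overexpression, bred from one parent with HoxB7-Cre and Grhl2flox/+ and the other with R26StopFLMYC and Grhl2flox/flox. HoxB7-Cre acts in the ureteric bud lineage, which forms the collecting ducts and not the other segments of the nephron, and R26StopFLMYC is a MYC transgene behind a stop cassette that Cre removes. The 3 Myc libraries came from mice labelled as Myc overexpression; the labels do not name their cross, and their columns carry the mark HET. The 5 wildtype libraries came from mice that carried R26StopFLMYC and Grhl2 flox/flox, so the controls held the floxed alleles and the transgene too. No group was treated, the labels name no age, and they do not say that each library is a separate mouse, so p-values measure the spread between these libraries.

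Total counts per library were 75187006 to 108164810 in the Grhl2KO_Myc group, 70608817 to 101043826 in the Myc group and 52973520 to 98713157 in the wildtype group. Levels are given in CPM, read counts relative to library size scaled by the trimmed mean of M values. Grhl2 itself, counted over its whole gene model including exons outside any deleted part, had 18.5, 19.0, 24.3 and 22.3 CPM in the Grhl2KO_Myc libraries, against 28.2 to 33.0 in the Myc libraries and 23.9 to 29.2 in the wildtype libraries. The mouse Myc row averaged 30.1 ± 2.23 CPM in the Grhl2KO_Myc libraries (SD, n = 4), 23.6 ± 4.24 in the Myc libraries (n = 3) and 26.7 ± 6.06 in the wildtype libraries (n = 5), and no label says whether transgene reads fall in this row. Libraries Grhl2KO_Myc 3, Grhl2KO_Myc 4 and wildtype 4 stood apart, with a proximal tubule score of -1.19, -1.10 and -1.47 (mean log2 CPM of 19 marker genes relative to the mean of all libraries), against -0.10 to 0.80 in the other libraries. All 19 proximal tubule markers, 10 collecting duct principal cell markers, 10 podocyte markers and 16 endothelial markers had reads in every library. The Y-linked gene Ddx3y was at 62.8 to 81.2 CPM in Grhl2KO_Myc 1, Grhl2KO_Myc 4, Myc 3 and wildtype 5 and at most 1.33 CPM in the others, and Grhl2KO_Myc 3 had neither Ddx3y nor more than 0.213 CPM of the X-inactivation transcript Xist. In bulk tissue, fewer cells of a type and less RNA per cell cannot be told apart.

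Of the 9 switch genes, 4 had a promoter window in the RefSeq table (build GRCm38.p6, 250 bases before to 50 after a start site): Ovol2, Zeb2, Snai1 and Twist1. They were searched on both strands for the grainyhead motif AACNNGTT, its full palindrome AACCGGTT, which is a special case of it, and the E-box CAGGTG that Snail and Zeb proteins bind. Of 32817 promoter windows of this length, 4.2% held AACNNGTT, 0.146% held AACCGGTT and 20.2% held CAGGTG. None of the 4 genes' windows held a grainyhead motif, and Snai1 alone held the E-box, beginning 126 bases before its start site. The Snai1 bases before that start, GRCm38.p6 chr2:167537945-167538194 on the plus strand, are shown because they place that E-box, a letter pattern that the Snail family can bind, upstream of a Snail gene; capitals mark the match.
Snai1 promoter: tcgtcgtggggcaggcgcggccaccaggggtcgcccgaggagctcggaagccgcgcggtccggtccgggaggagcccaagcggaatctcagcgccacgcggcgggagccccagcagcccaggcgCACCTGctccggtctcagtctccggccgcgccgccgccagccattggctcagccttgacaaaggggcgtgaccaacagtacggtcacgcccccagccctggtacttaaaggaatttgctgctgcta
CACCTG is CAGGTG read on the other strand. The Ovol2 window, chr2:144331313-144331612 on the minus strand with 65.7% G and C, belongs to a RefSeq start that is none of the 3 start sites GENCODE M21 gives for this gene, and windows set on those were not searched.

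Of the 9 switch genes, Ovol2 had the largest fitted difference between groups, and it fell in Grhl2KO_Myc kidneys against both other groups. It is encoded on chromosome 2 from 144305175 to 144332146 on the minus strand (mm10), with 4 merged exons and 2113 exon bases. Ovol2 had 0.465, 0.373, 0.736 and 0.511 CPM in the Grhl2KO_Myc libraries, against 1.40, 1.26 and 1.22 CPM in the Myc libraries and 1.31, 0.889, 0.894, 1.14 and 0.985 CPM in the wildtype libraries. Every Grhl2KO_Myc library lay below every library of the other 2 groups, while the Myc and wildtype libraries overlapped. These levels rest on 28 to 69 reads per Grhl2KO_Myc library, 88 to 123 per Myc library and 52 to 87 per wildtype library, so Ovol2 was read far less often than any other member. Ovol2 fell 1.99-fold in Grhl2KO_Myc against wildtype kidneys (log2 fold change -0.99, SE 0.20, 95% interval -1.43 to -0.55, edgeR adjusted p = 0.013). It fell 2.47-fold in Grhl2KO_Myc against Myc kidneys (log2 fold change -1.30, SE 0.22, 95% interval -1.78 to -0.82, adjusted p = 0.0167). In Myc against wildtype kidneys the log2 fold change was 0.31 (SE 0.21, interval -0.14 to 0.77, adjusted p = 0.999).

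The fall against wildtype passed the threshold in all 12 fits that left out 1 library (adjusted p 0.00661 to 0.046) and in all 7 other alternatives. The fall against Myc did not pass without Grhl2KO_Myc 4 (adjusted p = 0.0608), Myc 1 (0.0901), Myc 2 (0.0682) or Myc 3 (0.0559), with log2 fold changes of -1.29, -1.25, -1.32 and -1.35. Nor did it pass in edgeR with a term for replicate number in the model (log2 fold change -1.34, adjusted p = 0.0926). An antisense transcript, 1700108N11Rik, shares 359 exon bases with Ovol2, and the library kit does not mark strand. Its own row held 0 to 5 reads per library. Ovol1, on chromosome 19 from 5549136 to 5560646, is the better expressed relative: it had 13.8, 11.6, 11.02 and 11.5 CPM in Grhl2KO_Myc libraries, against 12.5, 13.8 and 16.9 in Myc libraries and 12.6, 13.0, 13.2, 14.2 and 15.1 in wildtype libraries. Its groups overlapped, with log2 fold changes of -0.19 in Grhl2KO_Myc against wildtype kidneys (SE 0.10, interval -0.41 to 0.03, adjusted p = 0.299) and -0.27 in Grhl2KO_Myc against Myc kidneys (SE 0.11, interval -0.51 to -0.02, adjusted p = 0.334). Per kilobase of exon, Ovol1 exceeded Ovol2 10.9- to 22.6-fold in the Grhl2KO_Myc libraries, 6.50- to 10.1-fold in the Myc libraries and 6.99- to 11.2-fold in the wildtype libraries.

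**Figure D1:**
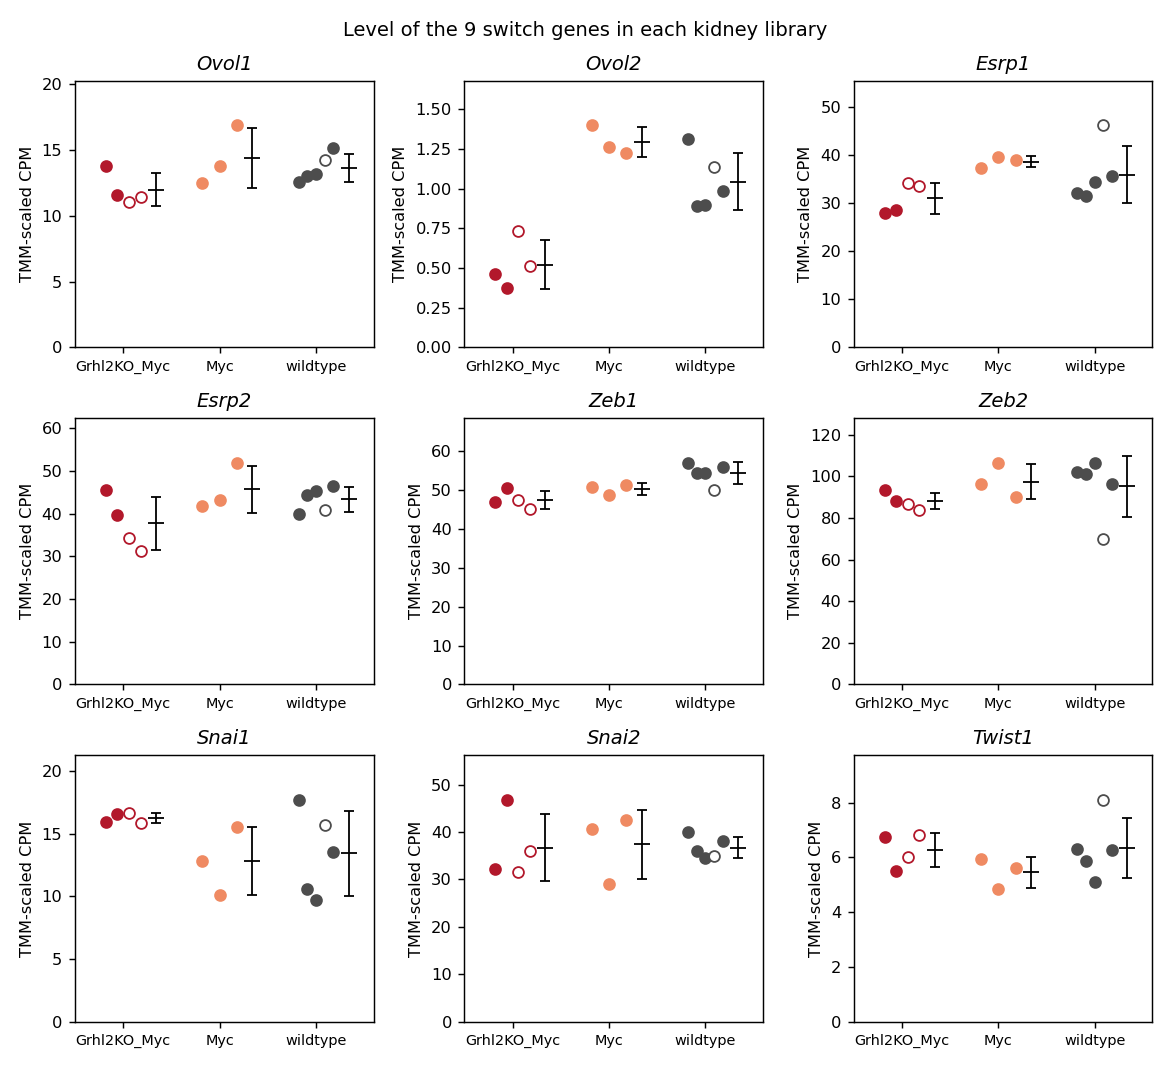
Level of each of the 9 switch genes in every library, in TMM-scaled CPM, with a separate axis from 0 for each gene. Points are libraries, the bar and whiskers are the group mean ± SD, and open points are Grhl2KO_Myc 3, Grhl2KO_Myc 4 and wildtype 4, the libraries with low proximal tubule scores. Ovol2 lies between 0.373 and 0.736 CPM in the Grhl2KO_Myc libraries, below every other library, while the groups of the other genes overlap or lie closer together.

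The splicing regulators gave smaller differences. Esrp1 (chromosome 4, 11331933 to 11386783, minus strand) had 28.0, 28.5, 34.1 and 33.5 CPM in Grhl2KO_Myc libraries, against 37.3, 39.6 and 39.0 CPM in Myc libraries and 32.0, 31.4, 34.4, 46.2 and 35.6 CPM in wildtype libraries. All Grhl2KO_Myc libraries were below all Myc libraries, whereas they overlapped the wildtype range, in which wildtype 4 was high. The log2 fold change was -0.32 in Grhl2KO_Myc against Myc kidneys (SE 0.12, interval -0.58 to -0.05, adjusted p = 0.279) and -0.21 in Grhl2KO_Myc against wildtype kidneys (SE 0.11, interval -0.44 to 0.02, adjusted p = 0.278), so neither passed the threshold. With a term for the proximal tubule score in the model, both passed, at -0.47 against Myc (adjusted p = 0.0153) and -0.31 against wildtype (adjusted p = 0.0146). Leaving out the 3 libraries low in proximal tubule transcripts kept only Grhl2KO_Myc 1 and Grhl2KO_Myc 2 of that group, at 28.0 and 28.5 CPM, and dropped wildtype 4 at 46.2 CPM. In that fit both differences also passed, at -0.45 against Myc (adjusted p = 0.0112) and -0.24 against wildtype (adjusted p = 0.0384). Leaving out wildtype 4 alone moved the difference against wildtype toward 0, to -0.10 (adjusted p = 0.365), and none of the 12 fits that left out 1 library called Esrp1 in either comparison.

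Esrp2 (chromosome 8, 106130319 to 106136974, minus strand) had 45.5, 39.6, 34.3 and 31.3 CPM in Grhl2KO_Myc libraries, against 41.9, 43.2 and 51.9 CPM in Myc libraries and 39.8, 44.4, 45.2, 40.8 and 46.4 CPM in wildtype libraries. The lowest values were those of Grhl2KO_Myc 3 and Grhl2KO_Myc 4, and Grhl2KO_Myc 1 lay within the range of both other groups. Its log2 fold change was -0.28 in Grhl2KO_Myc against Myc kidneys (SE 0.12, interval -0.53 to -0.02, adjusted p = 0.333) and -0.20 in Grhl2KO_Myc against wildtype kidneys (SE 0.10, interval -0.43 to 0.02, adjusted p = 0.283). Unlike those of Esrp1, these differences moved toward 0 with the proximal tubule term, to -0.17 against Myc (adjusted p = 0.447) and -0.12 against wildtype (adjusted p = 0.384). Without the 3 libraries low in proximal tubule transcripts they were -0.11 (adjusted p = 0.646) and -0.05 (adjusted p = 0.784). Against wildtype, leaving out Grhl2KO_Myc 1 gave -0.31 and leaving out Grhl2KO_Myc 4 gave -0.12, and against Myc, leaving out Myc 3 gave -0.18. Esrp2 shares 219 exon bases with Nfatc3 and 119 with 1810019D21Rik on the other strand, whose reads cannot be told apart there.

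The 2 splicing regulators did not move together across libraries. Per kilobase of exon, the Esrp1 to Esrp2 ratio was 0.423, 0.496, 0.684 and 0.736 in the Grhl2KO_Myc libraries, 0.614, 0.632 and 0.517 in the Myc libraries, and 0.554, 0.487, 0.523, 0.779 and 0.528 in the wildtype libraries. The 3 highest ratios were those of wildtype 4, Grhl2KO_Myc 4 and Grhl2KO_Myc 3, the libraries with the lowest proximal tubule scores. The part of tubule content in the ratio was not tested. Esrp2 exceeded Esrp1 in all 12 libraries.

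**Figure D2:**
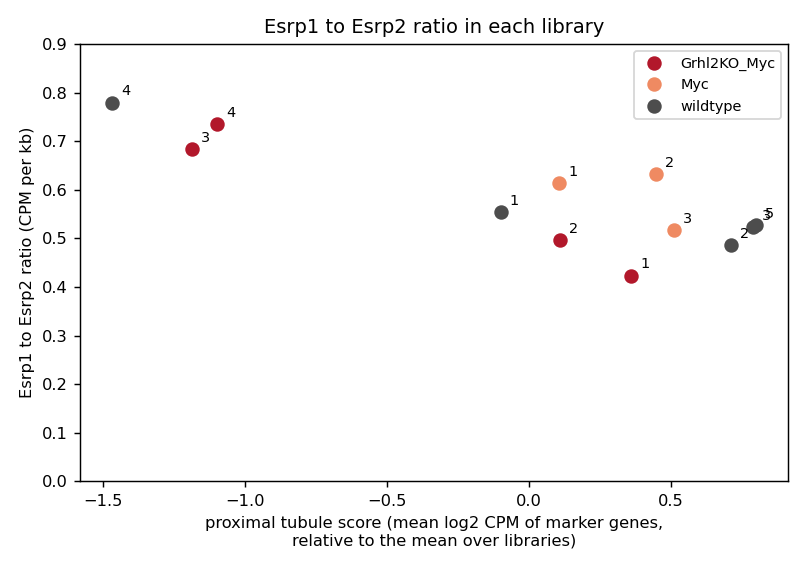
Ratio of Esrp1 to Esrp2 level per kilobase of exon (vertical axis) against the proximal tubule score (horizontal axis, mean log2 CPM of 19 markers relative to the mean over libraries). Each point is a library, numbered by replicate and coloured by group. The 3 libraries with scores of -1.19, -1.10 and -1.47 have ratios of 0.684, 0.736 and 0.779, above the 0.423 to 0.632 of the others.

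Among the 5 mesenchymal genes, Zeb1 alone passed the threshold in the fit of all 12 libraries, and it was lower in Grhl2KO_Myc than in wildtype kidneys. Zeb1 (chromosome 18, 5591860 to 5775467, plus strand), a repressor of E-cadherin and of epithelial microRNAs, had 46.8, 50.5, 47.5 and 45.2 CPM in Grhl2KO_Myc libraries, against 50.8, 48.7 and 51.5 CPM in Myc libraries and 57.1, 54.5, 54.4, 50.01 and 56.0 CPM in wildtype libraries. The Grhl2KO_Myc and wildtype ranges overlapped at Grhl2KO_Myc 2 and wildtype 4, and the Myc libraries lay in between. Zeb1 fell 1.15-fold in Grhl2KO_Myc against wildtype kidneys (log2 fold change -0.20, SE 0.05, interval -0.30 to -0.09, adjusted p = 0.034). The log2 fold change was -0.08 in Grhl2KO_Myc against Myc kidneys (SE 0.06, adjusted p = 0.551) and -0.11 in Myc against wildtype kidneys (SE 0.05, adjusted p = 0.999).

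The Zeb1 call was kept in 4 of 12 fits that left out 1 library. It was lost without Grhl2KO_Myc 1 (adjusted p = 0.0718), Grhl2KO_Myc 3 (0.084), Grhl2KO_Myc 4 (0.108), Myc 1 (0.0543), wildtype 1 (0.0782), wildtype 2 (0.0665), wildtype 3 (0.0655) or wildtype 5 (0.0649), with log2 fold changes of -0.20 to -0.17. Endothelial transcripts moved the same way: of 16 endothelial markers, 3 (Kdr, Flt1 and Tek, receptors of vascular growth factors and angiopoietins) fell in Grhl2KO_Myc against wildtype kidneys and 0 rose, where 2.61% of all genes fell and 4.06% rose. Their summed level was 1198 to 1271 CPM in Grhl2KO_Myc libraries, 1212 to 1298 CPM in Myc libraries and 1303 to 1464 CPM in wildtype libraries, and none was at 0 in any library. The Myc libraries thus also lay below every wildtype library. Of 10 podocyte markers, 3 fell and 0 rose, with summed levels of 1061 to 1138 CPM in Grhl2KO_Myc, 1105 to 1336 CPM in Myc and 1324 to 1410 CPM in wildtype libraries. Median log2 fold changes against wildtype kidneys were -0.15 for the endothelial and -0.32 for the podocyte list in Grhl2KO_Myc kidneys. In Myc against wildtype kidneys they were -0.13 and -0.18, where 0 markers of either list passed, and in Grhl2KO_Myc against Myc kidneys -0.05 and -0.16. Of other cells that can make Zeb transcripts, 0 of 10 fibroblast markers and 0 of 10 smooth muscle markers passed (medians -0.04 and 0.19), and of 13 leukocyte markers tested 0 fell and 1 rose (median 0.04), Ptprc, the leukocyte surface phosphatase CD45 (0.90, adjusted p = 0.00118), named after its value was seen. The part of these cells in the Zeb1 result was not tested.

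Zeb2 (chromosome 2, 44983632 to 45117395, minus strand), the close relative of Zeb1, had 93.1, 88.1, 86.5 and 83.9 CPM in Grhl2KO_Myc libraries, against 96.1, 106.3 and 89.9 CPM in Myc libraries and 102.0, 101.2, 106.5, 69.8 and 96.4 CPM in wildtype libraries. Without wildtype 4, at 69.8 CPM, all Grhl2KO_Myc libraries lay below all wildtype libraries. The log2 fold change was -0.11 in Grhl2KO_Myc against wildtype kidneys (SE 0.10, interval -0.34 to 0.11, adjusted p = 0.563), and leaving out wildtype 4 gave -0.21 (adjusted p = 0.0269). Without all 3 libraries low in proximal tubule transcripts it was -0.17 and not called (adjusted p = 0.155), and with the proximal tubule term it was 0.00 (adjusted p = 0.994). Against Myc kidneys it was -0.15 (SE 0.12, adjusted p = 0.623), and with the proximal tubule term -0.01 (adjusted p = 0.972). The antisense gene Zeb2os shares 653 exon bases with Zeb2, and its own row had a log2 fold change of -0.25 in Grhl2KO_Myc against wildtype kidneys (adjusted p = 0.188).

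The Snail and Twist genes gave no call. Snai1 (chromosome 2, 167538195 to 167542814, plus strand), an early inducer of the transition, had 16.0, 16.6, 16.6 and 15.9 CPM in Grhl2KO_Myc libraries, against 12.8, 10.1 and 15.6 CPM in Myc libraries and 17.7, 10.6, 9.71, 15.7 and 13.5 CPM in wildtype libraries. Its 4 Grhl2KO_Myc libraries lay within a narrow span above every Myc library, while the wildtype libraries were spread on both sides of that span. The log2 fold change was 0.34 in Grhl2KO_Myc against Myc kidneys (SE 0.19, interval -0.08 to 0.76, adjusted p = 0.487) and 0.28 in Grhl2KO_Myc against wildtype kidneys (SE 0.17, interval -0.09 to 0.64, adjusted p = 0.371).

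Snai2 (chromosome 16, 14705852 to 14709385, plus strand), known as Slug and made in neural crest and mesenchyme, had 32.2, 46.8, 31.6 and 35.97 CPM in Grhl2KO_Myc libraries, against 40.7, 29.0 and 42.5 CPM in Myc libraries and 40.0, 35.9, 34.5, 35.0 and 38.1 CPM in wildtype libraries. Grhl2KO_Myc 2 was the highest of the 12 libraries and Myc 2 the lowest. The difference between Grhl2KO_Myc and wildtype kidneys had an interval of -0.28 to 0.28 on the log2 scale (adjusted p = 0.994), and its sign changed with the library left out. Twist1 (chromosome 12, 33957671 to 33959829, plus strand), a mesodermal basic helix-loop-helix factor, had 6.74, 5.49, 6.01 and 6.84 CPM in Grhl2KO_Myc libraries, against 5.93, 4.83 and 5.62 CPM in Myc libraries and 6.31, 5.87, 5.11, 8.11 and 6.29 CPM in wildtype libraries. Its groups overlapped, and the interval between Grhl2KO_Myc and wildtype kidneys was -0.29 to 0.26 (adjusted p = 0.962); the sign of that difference also changed between alternatives.

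In all, 2 of 9 switch genes passed the threshold in Grhl2KO_Myc against wildtype kidneys, where 6.67% of all genes tested did, and both were lower, as 2.61% of all genes were. In Grhl2KO_Myc against Myc kidneys 1 of 9 passed, where 0.842% of all genes did, and it was lower. In Myc against wildtype kidneys 0 of 9 passed with edgeR, 0 with DESeq2 and 0 at an unadjusted p under 0.05, where 0.00421% of all genes passed the adjusted threshold and 4.62% the unadjusted one. At an unadjusted edgeR p under 0.05, 2 of 9 passed in Grhl2KO_Myc against wildtype kidneys. In Grhl2KO_Myc against Myc kidneys 4 of 9 did: Ovol1, Ovol2, Esrp1 and Esrp2. The shares of all genes at that level in these 2 comparisons are not given here, so these counts have no background to be read against. The Grhl2KO_Myc libraries served in both of the first comparisons. The 9 genes were chosen with earlier results of these data known, so the counts beside the shares are a description and not a test. The median log2 fold change of the 9 genes was -0.19 in Grhl2KO_Myc against wildtype kidneys, -0.15 in Grhl2KO_Myc against Myc kidneys and 0.03 in Myc against wildtype kidneys, against medians of -0.01, 0.00 and 0.00 over all genes tested. Of the 9 genes, 8 were below 0 in Grhl2KO_Myc against wildtype kidneys and 7 in Grhl2KO_Myc against Myc kidneys, the 4 epithelial genes and most of the mesenchymal ones among them. These counts include values near 0 whose sign turned in some alternatives: Snai2 (-0.002) and Twist1 (-0.015) against wildtype and Snai2 (-0.03) against Myc. The share of all genes below 0 is not given here. Libraries of the 2 groups did not overlap for 1 of 9 genes in Grhl2KO_Myc against wildtype kidneys, where 9.47% of all genes did so, and for 3 of 9 in Grhl2KO_Myc against Myc kidneys, where 16.8% did.

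**Figure D3:**
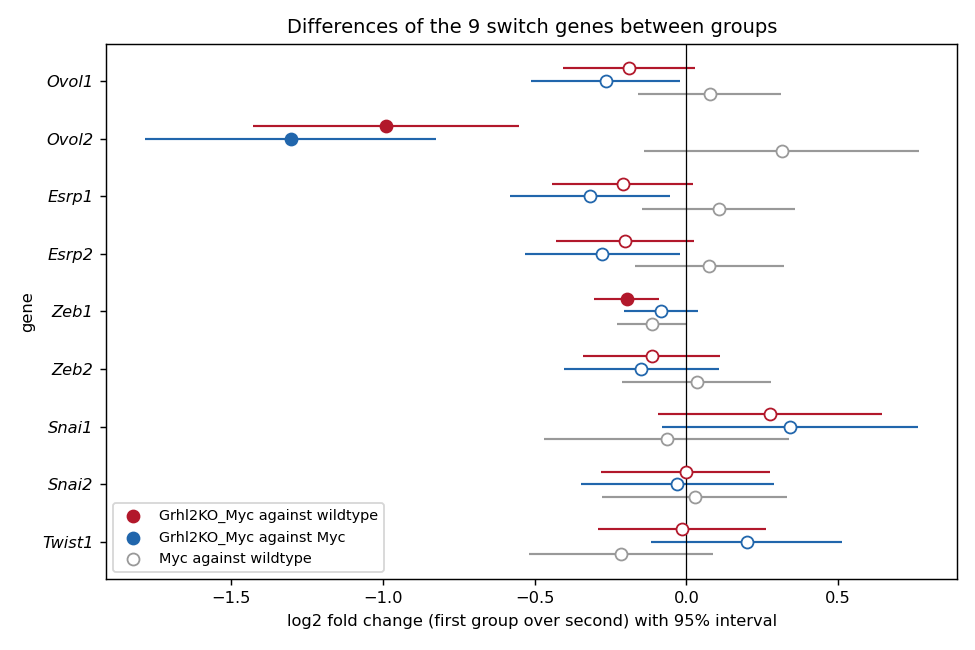
Log2 fold change of each switch gene with its 95% interval (horizontal axis) in Grhl2KO_Myc against wildtype, Grhl2KO_Myc against Myc and Myc against wildtype kidneys. Filled points passed an adjusted p of 0.05 in edgeR's quasi-likelihood test over all genes. Ovol2 lies at -0.99 and -1.30 in the comparisons with Grhl2KO_Myc, and Zeb1 at -0.20 against wildtype is the other filled point.

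To compare genes with each other, levels were divided by exon length. In wildtype libraries the order by mean level was Snai2 (17.0 to 19.7 CPM per kilobase), Esrp2 (9.17 to 10.7), Snai1 (5.99 to 10.9), Esrp1 (4.98 to 7.32), Zeb1 (4.95 to 5.65), Zeb2 (3.51 to 5.35), Ovol1 (4.34 to 5.22), Twist1 (3.16 to 5.02) and Ovol2 (0.421 to 0.621). Snai2 stood above and Ovol2 below all others without overlap, and each of the 7 genes between overlapped its neighbour in the order. Snai2 was highest in the Grhl2KO_Myc libraries too, at 15.6 to 23.0, with Ovol2 lowest at 0.177 to 0.348. The summed level per kilobase of the 4 epithelial genes, divided by that of the 5 mesenchymal genes, was 0.386 to 0.508 in Grhl2KO_Myc libraries, 0.495 to 0.642 in Myc libraries and 0.424 to 0.565 in wildtype libraries, and all 3 ranges overlapped.

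**Figure D4:**
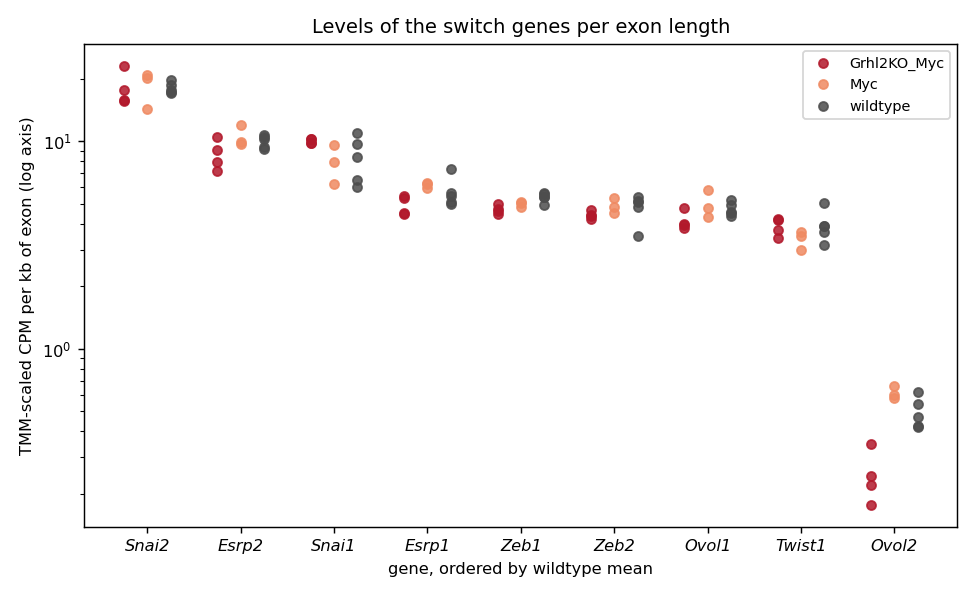
Level of each switch gene in TMM-scaled CPM per kilobase of exon (vertical log axis), with genes ordered by their wildtype mean and 1 point per library, coloured by group. Snai2 is at the top with 17.0 to 19.7 in wildtype libraries, and Ovol2 is at the bottom with 0.421 to 0.621.

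The factors that work with the switch genes showed calls on the epithelial side. Of 11 further epithelial transcription factors tested, 2 rose and 1 fell in Grhl2KO_Myc against wildtype kidneys, where 4.06% of all genes rose and 2.61% fell, and the list's median log2 fold change was 0.14. Elf5, an Ets factor of collecting duct principal cells, fell to 5.75 ± 0.850 CPM in Grhl2KO_Myc libraries, against 21.5 ± 1.41 CPM in wildtype libraries (log2 fold change -1.90, adjusted p = 3.55e-06). Its relative Ehf averaged 72.0 ± 6.37 CPM in Grhl2KO_Myc libraries and 42.7 ± 2.38 CPM in wildtype libraries (0.75, adjusted p = 0.000311), and Grhl3, a Grhl2 paralog of surface epithelia, averaged 6.43 ± 2.03 CPM in Grhl2KO_Myc libraries and 3.06 ± 0.690 CPM in wildtype libraries (1.07, adjusted p = 0.013). Of 9 urothelium markers, 1 rose and 0 fell in this comparison (median 0.53). Their score, computed as for the proximal tubule, was 0.94, 0.48, 0.76 and -1.33 in the Grhl2KO_Myc libraries and -0.73 to 0.37 in wildtype libraries. The part of urothelial content in these rises was not tested.

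In Grhl2KO_Myc against Myc kidneys 0 of these 11 factors rose and 2 fell, where 0.358% of all genes rose and 0.484% fell: Elf5 at a log2 fold change of -2.14 (adjusted p = 4.55e-06) and Grhl2 at -0.51 (adjusted p = 0.0443). Grhl2 is the gene that the labels name as knocked out in this group, so its call is no result about the list. The Grhl2 call was lost in 9 of 12 fits that left out 1 library, those without Grhl2KO_Myc 1, 2 or 4, any Myc library, or wildtype 2, 3 or 5 (adjusted p 0.0625 to 0.21), and with a term for sex (0.0676). Against wildtype kidneys Grhl2 lay at -0.29 (adjusted p = 0.0816), and it passed without Grhl2KO_Myc 3 (-0.37, adjusted p = 0.0494) or wildtype 4 (-0.32, adjusted p = 0.044), with DESeq2 (-0.29, adjusted p = 0.0342), with the proximal tubule term (-0.34, adjusted p = 0.0457) and without the 3 libraries low in proximal tubule transcripts (-0.49, adjusted p = 0.013). Grhl1 was at 0.19 against wildtype (adjusted p = 0.389). Of 10 principal cell markers, Elf5 included, 3 fell and 0 rose against wildtype, where 2.61% of all genes fell and 4.06% rose. These 10 markers had a median log2 fold change of -0.07, and 5 of them were above 0. Their summed level was 736 to 880 CPM in Grhl2KO_Myc libraries, against 653 to 1010 CPM in wildtype libraries. Their score, computed as for the proximal tubule, was -0.38 to -0.07 in Grhl2KO_Myc, 0.11 to 0.21 in Myc and -0.05 to 0.15 in wildtype libraries. By that score every Grhl2KO_Myc library lay below every other library. This was not particular to principal cells. The score of 6 distal convoluted tubule markers was -0.59 to -0.39 in Grhl2KO_Myc libraries and -0.14 to 0.62 in the others. The part of principal cell content in the results was not tested.

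Of 22 further epithelial genes, 3 rose and 5 fell in Grhl2KO_Myc against wildtype kidneys, where 4.06% of all genes rose and 2.61% fell. The list, which holds junction and polarity genes, keratins, a mucin, proteases and trafficking genes, had a median log2 fold change of 0.00. Cdh1, the junction cadherin that Zeb and Snail proteins repress, averaged 225 ± 12.1 CPM in Grhl2KO_Myc libraries and 225 ± 8.81 CPM in wildtype libraries (adjusted p = 0.993). The genes that rose were Ap1m2, a basolateral sorting adaptor (0.45, adjusted p = 0.000572), Cldn7, a tight junction claudin (0.44, adjusted p = 0.00162), and Krt19, a ductal keratin (0.93, adjusted p = 0.0112). Those that fell were Muc1, an apical mucin (-0.58, adjusted p = 0.00186), Dsp, the desmosomal linker desmoplakin (-0.50, adjusted p = 0.00105), Rab25, an apical recycling GTPase (-0.35, adjusted p = 0.0327), Cgn, the tight junction protein cingulin (-0.30, adjusted p = 0.00712), and Epcam, an adhesion molecule (-0.28, adjusted p = 0.0097). Krt19, Muc1, Cgn and Epcam were named after their values were seen. The Rab25 call was lost without Grhl2KO_Myc 1, 3 or 4 or wildtype 1, 3 or 5 (adjusted p 0.0501 to 0.103, log2 fold changes -0.39 to -0.30) and with no filter on low counts (-0.34, adjusted p = 0.0629).

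In Grhl2KO_Myc against Myc kidneys 0 of the 22 epithelial genes rose and 4 fell, where 0.358% of all genes rose and 0.484% fell. The list median was -0.07. Rab25 fell to 8.48 ± 0.642 CPM in Grhl2KO_Myc libraries, against 15.5 ± 1.80 CPM in Myc libraries (log2 fold change -0.87, adjusted p = 0.00103). Dsp (-0.58, adjusted p = 0.00226), Cgn (-0.47, adjusted p = 0.00264) and Muc1 (-0.57, adjusted p = 0.0156) were the others. The Muc1 call was lost without Grhl2KO_Myc 3 or 4 or any 1 Myc library (adjusted p 0.0512 to 0.0881, log2 fold changes -0.58 to -0.52).

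**Figure D5:**
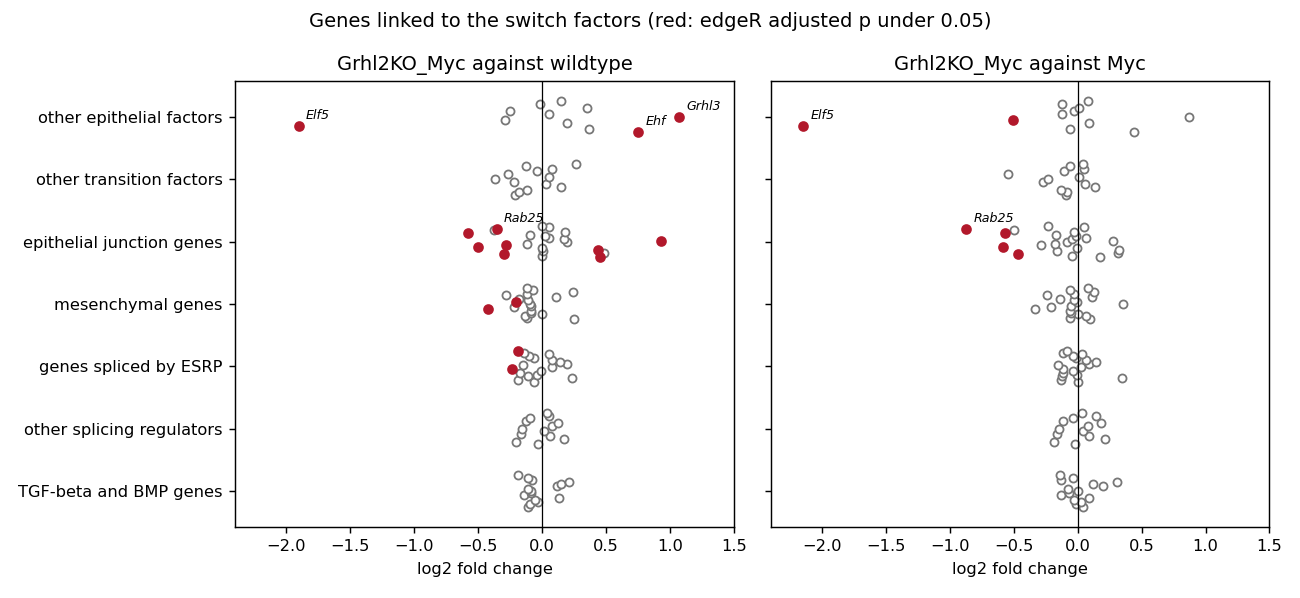
Log2 fold change of each tested gene in 7 lists of genes linked to the switch factors, in Grhl2KO_Myc against wildtype kidneys (left) and Grhl2KO_Myc against Myc kidneys (right). Each point is a gene and red marks an adjusted p under 0.05 in edgeR. The red points belong to the epithelial factors, with Elf5 at -1.90 and -2.14, and to the list labelled epithelial junction genes, which also holds keratins, a mucin, proteases and trafficking genes. On the left 2 mesenchymal and 2 ESRP-spliced genes are also red, and the remaining lists have none.

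On the mesenchymal side, 2 of 19 structural and matrix genes fell and 0 rose in Grhl2KO_Myc against wildtype kidneys, where 2.61% of all genes fell and 4.06% rose. The median log2 fold change was -0.11, and 0 passed in Grhl2KO_Myc against Myc kidneys (median -0.03). Fap, a fibroblast surface protease, averaged 8.40 ± 1.03 CPM in Grhl2KO_Myc libraries and 11.3 ± 1.07 CPM in wildtype libraries (-0.43, adjusted p = 0.0342). Loxl2, a collagen cross-linking oxidase, was at -0.21 (adjusted p = 0.0486). The Fap call was lost without Grhl2KO_Myc 1, 3 or 4, Myc 1, or wildtype 1, 2, 3 or 5 (adjusted p 0.0538 to 0.105), and the Loxl2 call in every fit that left out 1 library except that without wildtype 4 (adjusted p 0.0606 to 0.106). With the sex term both were lost (0.0673 for Fap and 0.0951 for Loxl2), and with no filter on low counts Loxl2 was lost (0.0985). Summed fibroblast markers were 3965 to 4987 CPM in Grhl2KO_Myc libraries, against 4093 to 5151 CPM in wildtype libraries. Fn1, the fibronectin gene, was at -0.22 (adjusted p = 0.13) and Mmp2, a matrix protease, at -0.18 (adjusted p = 0.174).

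Of 13 further transition factors tested, 0 passed in either comparison with Grhl2KO_Myc, with medians of -0.12 against wildtype and -0.08 against Myc. The smallest adjusted p belonged to Foxc2 (-0.21, adjusted p = 0.125), a forkhead factor that in the kidney is also made by podocytes. Of 15 TGF-beta and BMP pathway genes, whose signals induce Snai1 and Zeb genes, 0 passed, with medians of -0.08 against wildtype and -0.01 against Myc. Tgfb2, a ligand, was at 0.15 against wildtype (adjusted p = 0.123).

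Genes whose transcripts the Esrp proteins splice numbered 18, and 2 of them fell and 0 rose in Grhl2KO_Myc against wildtype kidneys, where 2.61% of all genes fell and 4.06% rose. The list median was -0.06. Tjp1, encoding the tight junction protein ZO-1, was at -0.19 (adjusted p = 0.0256) and Fgfr1, a fibroblast growth factor receptor, at -0.24 (adjusted p = 0.0355). The Tjp1 call was lost without Grhl2KO_Myc 1, 2 or 4 or wildtype 1 or 3 (adjusted p 0.0543 to 0.0687), and the Fgfr1 call without any 1 Grhl2KO_Myc library, Myc 2, or wildtype 1, 2 or 3 (adjusted p 0.0524 to 0.0893). Both calls were also lost with no filter on low counts (0.0793 for Tjp1 and 0.0675 for Fgfr1) and with the sex term (0.0526 and 0.0554). None of the 18 passed in Grhl2KO_Myc against Myc kidneys (median -0.02). Of 13 other splicing regulators tested, Rbfox2 and Mbnl2 among them, 0 passed in either comparison, with medians of 0.02 and 0.04. Counts per gene do not separate splice forms, so epithelial and mesenchymal isoforms were not measured. The 6 rows for the miR-200 family and Mir205, microRNAs that repress Zeb1 and Zeb2, held at most 7 reads per library in these poly(A) libraries and were not tested.

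Likeness across the 12 libraries was measured as Pearson's r of log2 CPM with each of 14763 genes of at least 1 CPM on average, as a description in which libraries and their cell content are shared. Nearest to Ovol1 was Atp6v0b (r = 0.907), and nearest to Esrp2 were Tmprss2 (0.947), a membrane protease of epithelia, and Atp6v0a4 (0.935), a proton pump subunit of intercalated cells. Vat1 was among the 3 nearest of both Ovol1 (0.903) and Esrp2 (0.920). Of 12 intercalated cell markers, 2 fell and 0 rose in Grhl2KO_Myc against Myc kidneys (median log2 fold change -0.58), where 0.484% of all genes fell and 0.358% rose. Their summed level was 317 to 403 CPM in Grhl2KO_Myc, 452 to 541 CPM in Myc and 248 to 446 CPM in wildtype libraries. The part of intercalated cell content in the Ovol1 and Esrp2 values was not tested. Esrp1 was nearest to Epn3 (0.904), an endocytic adaptor. Zeb1 was nearest to Ror1 (0.956) and Zeb2 to Plau (0.952), the urokinase gene, followed by Kif21a (0.950) and the glucocorticoid receptor gene Nr3c1 (0.946). Snai1 was nearest to Zfp658 (0.938), Snai2 to Nsg1 (0.925) and Twist1 to B4galt7 (0.926). Ovol2 averaged less than 1 CPM and was left out of this comparison. Each r named is among the 3 highest of 14763 over 12 libraries, and no background for such maxima was computed.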

How the data were processed

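Gene expression was measured by RNA-seq in 12 mouse kidney libraries built with a kit that does not mark strand, per the labels' protocols. Reads were aligned with HISAT2 to mm10, per the submitters' processing notes, with version and counting program not given in the sources used. The authors deposited raw counts in 1 table with each gene's exon width; levels, tests and intervals were computed here.

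Counts were filtered with filterByExpr, scaled by TMM and tested with edgeR 4.0.16 in R 4.3.3 (quasi-likelihood F test, 12 libraries, 1 coefficient per group), with Benjamini-Hochberg adjustment over 23742 genes and a threshold of 0.05. DESeq2 1.42.0 was an alternative. Standard errors are the log2 fold change divided by the root of F. No 2 libraries of a group agreed within sampling noise (lowest chi-square 13.3 per degree of freedom), so none was treated as a repeat deposit of another; this does not show that they are separate animals. Loci come from GENCODE M21. The exon widths of the deposited table set levels per kilobase. The procedure was tested on simulated data.

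The members and gene lists were chosen with earlier results of these data known. Named are the 9 genes, Grhl1, Grhl2, Grhl3, Cdh1, the 4 genes of each list with the smallest adjusted p, and the 3 genes most like each member. Patj and Epb41l5 are listed as Inadl and Epb4.1l5.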

Additional observations from a re-analysis of the deposited data

Results flagged for a closer look

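In 18 sets of 4 or 5 libraries of 1 group, 1 set per switch gene and group, the distance of the highest or lowest library from its neighbour was compared with the whole range of the group (Dixon's test). Chance marks about 1 in 20 such sets, and 2 of 18 were marked, both in wildtype 4. Esrp1 was at 46.16 CPM in wildtype 4, above the 31.41 to 35.6 CPM of the other wildtype libraries, a gap of 0.716 of the range. Zeb2 was at 69.82 CPM in wildtype 4, below the 96.36 to 106.5 CPM of the other wildtype libraries, a gap of 0.723 of the range. Wildtype 4 also had the lowest proximal tubule score of all libraries, -1.47, and the part of tubule content in these values was not tested.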

How the results depend on the processing

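Ovol2 in Grhl2KO_Myc against wildtype kidneys kept its direction and its side of the threshold in all alternatives run: another scaling (RLE), no filter on low counts, DESeq2, a replicate block, a sex term, a proximal tubule term, 3 libraries left out and each library left out in turn. The cause of the changes below was not tested. In Grhl2KO_Myc against wildtype kidneys the count of switch genes past the threshold was 1 with no filter, with the replicate block and with the sex term, since Zeb1 no longer passed (adjusted p = 0.0834, 0.0766 and 0.0654), 3 with the proximal tubule term and 3 without the 3 libraries, since Esrp1 passed, and 1 to 3 when 1 library was left out. All genes past it numbered 2648 with DESeq2, 993 with the replicate block, 998 with the sex term and 2385 with the proximal tubule term, and 2272 without wildtype 4, Grhl2KO_Myc 3 and Grhl2KO_Myc 4, against 1584 in the fit reported, and 750 to 3778 when 1 library was left out; 3778 was the count without wildtype 4. In Grhl2KO_Myc against Myc kidneys the switch genes past the threshold were 0 with the replicate block (Ovol2 adjusted p = 0.0926), 2 with the proximal tubule term, 2 without the 3 libraries, and 0 to 1 when 1 library was left out. All genes past it there numbered 762 with DESeq2, 88 with the replicate block and 318 without the 3 libraries, against 200, and 70 to 703 when 1 library was left out. In Myc against wildtype kidneys they were 43 with DESeq2, 0 with the replicate block and 0 with the sex term, against 1, and 0 to 6 when 1 library was left out.

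The labels do not say that replicate numbers pair libraries. The correlation of same-numbered libraries' deviations from their group means was -0.11 to 0.23. Differently numbered libraries were not compared, so these values cannot decide whether the numbers pair. The block also ended the calls of Rab25 (adjusted p = 0.107), Tjp1 (0.0656), Fgfr1 (0.0544) and Loxl2 (0.121) against wildtype and of Grhl2 against Myc (0.206). With the block, Grhl3 against Myc was gained (0.998, adjusted p = 0.0114). Signs turned for the following differences, and none of them was past the threshold. In Grhl2KO_Myc against wildtype kidneys Snai2 turned to 0.01291 with no filter, 0.01126 with the replicate block, 0.02272 with the proximal tubule term and 0.08551 without the 3 libraries, and ranged from -0.1417 to 0.06273 when 1 library was left out. Twist1 turned to 0.04948 and Celf2 to 0.03468 without the 3 libraries, and Twist1 ranged from -0.0916 to 0.09059 when 1 library was left out. Cdh1 turned to 0.01422 with no filter and 0.01765 with the replicate block, and ranged from -0.02632 to 0.01765. In Grhl2KO_Myc against Myc kidneys Loxl2 turned to 0.0009509 with no filter, 0.004409 with the replicate block and 0.001204 with the sex term, and ranged from -0.03307 to 0.02909. Snai2 turned to 0.003533 with the proximal tubule term and 0.07466 without the 3 libraries, and ranged from -0.1831 to 0.06442; Celf2 turned to 0.007662 without the 3 libraries, and Grhl1 ranged from -0.01438 to 0.1506. In Myc against wildtype kidneys Zeb2 turned to -0.02772 with the replicate block and -0.06078 without the 3 libraries. When 1 library was left out there, Zeb2 ranged from -0.05955 to 0.08923, Snai1 from -0.2298 to 0.08159, Snai2 from -0.07298 to 0.1811, Ovol1 from -0.05293 to 0.1701 and Esrp2 from -0.02626 to 0.134.

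Without the 3 libraries low in proximal tubule transcripts, the calls of Rab25 (-0.28, adjusted p = 0.149), Fap (-0.34, 0.0814) and Fgfr1 (-0.24, 0.0883) against wildtype and of Muc1 against Myc (-0.44, 0.0563) were lost, and those of Grhl2 (-0.49, 0.013) and Tgfb3 (0.32, 0.0213) against wildtype and of Epcam (-0.30, 0.0401) and Cldn7 (0.25, 0.0444) against Myc were gained. Among the linked genes named, the proximal tubule term also gained Foxc2 (0.00739), Id1 (0.028), Tcf4 (0.0254) and Smad2 (0.0493) against wildtype, and DESeq2 gained Slk (0.029) against wildtype and Grhl3 (0.0222) and Ehf (0.00177) against Myc. Depth limits Ovol2 most, with 28 to 69 reads per Grhl2KO_Myc library, and splice forms cannot be read from counts per gene.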
